A study of Mus musculus with 2 samples.

Results

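The 9 genes described here are 4 Notch receptors (Notch1, Notch2, Notch3 and Notch4), 3 Notch ligands (Jag1, Jag2 and Dll4) and 2 genes that Notch signalling switches on (Hes1 and Hey1). They were taken by symbol from the gene lists of both single-cell libraries, which hold 19070 genes each, and 8 of the 9 had values. Notch4 was not analysed here. The cells came from the endometrium, the inner layer of the uterus, of mice on day 3 of pregnancy, collected at 9 AM according to the library names. One library was from control females that carry floxed Erbb3 alleles (Erbb3 f/f). The other was from Erbb3 d/d females, whose stroma lacks Erbb3 according to the labels. Erbb3 is a receptor of the ErbB family, and the study's title places its question in the shaping of uterine glands. The labels name neither the driver of the deletion nor the number of mice, and there was 1 library per genotype. The difference between the genotypes can therefore not be told apart from a difference between animals, dissections or libraries, no test was run, and all intervals printed here are 95% intervals that cover counting error only.

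Notch receptors sit in the cell membrane and are engaged by ligands on a neighbouring cell. Binding leads to cleavage of the receptor, first by an ADAM protease and then by gamma-secretase, and the freed intracellular part joins the DNA-binding protein RBPJ in the nucleus and switches on genes such as Hes1 and Hey1, which encode transcriptional repressors. In blood vessels, Dll4 and the Jagged ligands take part in sprouting and in arterial identity, and Notch3 is known as a receptor of the smooth muscle cells and pericytes around them, together called mural cells. Messenger RNA levels do not show whether a receptor has been cleaved.

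Values are UMIs, which count captured molecules, summed over all cells of a class in a library and expressed as CPM, here the gene's UMIs as a share of that class's UMIs, in parts per 1000000. The 5783 barcodes of the f/f library held 6819591 UMIs and the 2125 barcodes of the d/d library held 2866862. After filtering, 5502 f/f cells (median 809 UMIs) and 1825 d/d cells (median 763) were used. No full barcode was shared between the libraries, and 158 shared their first 16 bases. Cells were placed in classes by marker genes, since no label gives cell types: 2398 f/f and 901 d/d cells were epithelial, 1429 and 306 stromal, 208 and 70 mesothelial, 213 and 67 endothelial, 73 and 20 mural, and 99 and 39 myeloid. In all, 80.8% of f/f cells and 77.6% of d/d cells had a class. These shares include 22 f/f and 13 d/d lymphoid cells, which are left out of the orders of classes given here. In f/f the lymphoid cells had 274 CPM of Notch1 (7 UMIs) and 117 of Hes1 (3 UMIs). Such a class is a range of marker counts and not a proven cell type: 585 epithelial and 130 stromal cells had the minimum of 2 marker UMIs. Erbb3 itself had 13 UMIs in stromal cells of the f/f library and 2 in those of the d/d library (10.8 and 8.28 CPM), too few to check the deletion, and 192 and 34 in epithelial cells (79.7 and 41.6 CPM). The epithelial level of Erbb3 was thus lower in d/d, and its intervals did not overlap (68.9 to 91.9 CPM for f/f, 28.8 to 58.2 CPM for d/d). The epithelium can therefore not be taken as unchanged in Erbb3, and the cause of this difference was not tested. Whether the Erbb3 probes lie within the deleted part is not given in the sources used here.

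Markers of other classes were found in each of these classes. The 10 stromal markers, summed, reached 33.4% of their stromal level in f/f endothelial cells and 47.7% in d/d endothelial cells, and the 15 epithelial markers reached 23.4% and 19.3% of their epithelial level there. In the other direction the values were smaller: the 15 endothelial markers reached 1.28% (f/f) and 1.22% (d/d) of their endothelial level in epithelial cells, and 2.80% and 2.03% in stromal cells. The smaller classes held more. In f/f mesothelial cells, summed epithelial markers stood at 46.1% and stromal markers at 53.4% of their own level, in mural cells at 24.5% and 58.0% and in myeloid cells at 21.3% and 40.3%. In d/d these were 44.6% and 41.8%, 26.9% and 53.7%, and 29.4% and 37.1%. The part of RNA from other cells in the levels of the Notch genes in these classes was not tested.

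Promoter sequence is shown for 3 genes: Dll4 and Jag1, as ligands highest in endothelial cells, and Notch3, as the receptor highest in mural cells. The window of Jag2 lies wholly within the span of the gene in GENCODE M21 and is not printed. For Dll4 and Notch3 these are the 250 bases before the gene's start in RefSeq. For Jag1 they are the 126 bases of that window that lie outside the span of the gene in GENCODE M21. For Notch3 the RefSeq start is not that of GENCODE M21, where the gene begins at position 32166852 on the - strand. The sequences are from RefSeq on GRCm38.p6, and 7 of the 9 genes matched there, Hes1 and Hey1 being the other two. Dll4 is at chr2:119325534-119325783 on the + strand, where the first bases also lie in an exon of the noncoding gene Gm14207 on the other strand. Notch3 is at chr17:32166891-32167140 and Jag1 at chr2:137116645-137116770, both on the - strand. Each is written 5′ to 3′ in the gene's direction, with the 4-letter core of ETS family sites (GGAA on either strand) in capitals.
Dll4: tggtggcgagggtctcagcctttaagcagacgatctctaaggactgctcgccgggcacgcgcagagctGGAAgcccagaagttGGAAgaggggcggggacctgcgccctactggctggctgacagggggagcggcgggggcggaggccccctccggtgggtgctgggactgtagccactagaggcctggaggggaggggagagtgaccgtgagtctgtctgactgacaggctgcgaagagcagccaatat
Notch3: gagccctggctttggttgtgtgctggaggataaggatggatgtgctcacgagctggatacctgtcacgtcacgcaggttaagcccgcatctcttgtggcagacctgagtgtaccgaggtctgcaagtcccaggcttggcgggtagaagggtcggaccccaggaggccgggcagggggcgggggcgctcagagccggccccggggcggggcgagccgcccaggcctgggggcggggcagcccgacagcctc
Jag1: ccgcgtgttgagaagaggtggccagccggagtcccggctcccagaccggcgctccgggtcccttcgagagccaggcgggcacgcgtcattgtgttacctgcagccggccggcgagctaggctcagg
Dll4 held 2 GGAA matches and Notch3 held none. The whole 250-base window of Jag1 held 3, all in the part within the span of the gene and so not printed. Among 32851 promoters of the same length, 93.4% held GGAA at least once, with a median of 3 matches, so its presence does not set any of these genes apart. The RBPJ core TGGGAA, which contains GGAA, and the E-box CACGTG had 0 matches on either strand in the 250 bases of all 7 matched genes. They occurred in 21.6% and 6.02% of all promoters. These matches describe letters in a short window and say nothing of binding.

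Notch1 (ENSMUSG00000026923, chr2:26457903-26516663 in GRCm38) was the receptor with the widest spread over classes. In f/f cells its level was 314 CPM in endothelial (79 UMIs), 270 in epithelial (650 UMIs), 208 in mural, 134 in myeloid, 106 in mesothelial and 106 in stromal cells (128 UMIs). In d/d cells it was 298 CPM in endothelial (22 UMIs), 263 in epithelial (215 UMIs), 241 in myeloid, 169 in mural, 166 in stromal (40 UMIs) and 147 in mesothelial cells. Endothelial cells thus had the highest level in both libraries, but neighbours in this order had overlapping intervals, and endothelial over epithelial was 1.16-fold in f/f and 1.13-fold in d/d with intervals that include no difference. Epithelial cells were above stromal cells by 1.35 on the log2 scale in f/f (interval 1.07 to 1.63) and by 0.67 in d/d (0.18 to 1.19). Among epithelial cells 21.2% (f/f) and 19.8% (d/d) had a Notch1 UMI, against 7.56% and 8.82% of stromal cells, whose median depth was 717 and 683 UMIs beside 859 and 790 in the epithelium.

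Notch2 (ENSMUSG00000027878, chr3:98013527-98150361) was sparse everywhere. The mesothelium, the lining of the outer surface of the uterus, had its highest level, 67.6 CPM in f/f (14 UMIs) and 48.9 in d/d (4 UMIs). Stromal cells had 19.0 and 37.3 CPM (23 and 9 UMIs), epithelial cells 14.1 and 20.8 (34 and 17 UMIs), endothelial cells 23.8 and 13.5 (6 and 1 UMIs) and myeloid cells 25.1 and 21.9 (3 and 1 UMIs). Mural cells had 0 UMIs in both libraries. No 2 neighbours in this order had separate intervals in either library.

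Notch3 (ENSMUSG00000038146, chr17:32120820-32166852) was highest in mural cells, at 231 CPM in f/f (20 UMIs, interval 141 to 356) and 127 in d/d (3 UMIs, 26.1 to 370). In f/f the mural level was 6.33-fold the stromal level and 19.1-fold the epithelial level. The next classes in f/f were myeloid (41.9 CPM, 5 UMIs), endothelial (39.7, 10 UMIs) and stromal (36.4, 44 UMIs), followed by epithelial (12.0, 29 UMIs) and mesothelial cells (4.83, 1 UMI). The mural class stood apart from the next class in f/f, and stromal from epithelial cells, whereas in d/d, with 3 mural UMIs, no neighbours had separate intervals. Stromal Notch3 was 15.8% of the mural level in f/f, while the 11 mural markers counted reached 4.00% of their mural level in stromal cells when summed and between 0.22% and 34.6% singly, a range that includes the value of Notch3.

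The ligands had their highest levels in endothelial cells of both libraries. Jag2 (ENSMUSG00000002799, chr12:112907819-112929776) was at 298 CPM in f/f endothelial cells (75 UMIs, interval 234 to 373) and 244 in d/d (18 UMIs, 144 to 385). The epithelial level was 27.4 and 30.6 CPM (66 and 25 UMIs) and the stromal level 10.8 and 4.14 CPM (13 UMIs and 1 UMI), and in mesothelial, mural and myeloid cells there was at most 1 UMI per library. Endothelial over epithelial was 10.9-fold in f/f and 7.96-fold in d/d. A Jag2 UMI was found in 27.2% of f/f endothelial cells and in 0.840% of f/f stromal cells.

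Dll4 (ENSMUSG00000027314, chr2:119325784-119335962), the Delta-like ligand of sprouting vessels, was at 167 CPM in f/f endothelial cells (42 UMIs, interval 120 to 226) and 203 in d/d (15 UMIs, 114 to 335). Epithelial cells had 21.2 and 11.0 CPM (51 and 9 UMIs) and stromal cells 6.62 and 4.14 (8 UMIs and 1 UMI). Mesothelial cells had 0 UMIs in both libraries. Endothelial over epithelial was 7.88-fold in f/f and 18.4-fold in d/d. In f/f endothelium 1 cell held as many as 10 of the 42 UMIs.

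In stromal cells Jag2 stood at 3.61% (f/f) and 1.70% (d/d) of its endothelial level and Dll4 at 3.97% and 2.04%, close to the 2.80% and 2.03% at which the summed endothelial markers appeared there (single markers from 0.74% to 33.9% in f/f). In epithelial cells Jag2 stood at 9.20% and 12.6% and Dll4 at 12.7% and 5.43%, above the 1.28% and 1.22% of the summed endothelial markers. Single endothelial markers reached up to 5.34% in f/f and 4.40% in d/d epithelial cells, below the point values of both ligands. The d/d value of Dll4 rests on 9 epithelial and 15 endothelial UMIs, and its counting interval includes 4.40%. The part of RNA from other cells in these levels was not tested.

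Jag1 (ENSMUSG00000027276, chr2:137081456-137116644) was also highest in endothelial cells, at 230 CPM in f/f (58 UMIs, interval 175 to 298) and 338 in d/d (25 UMIs, 219 to 499), but it reached further into the other classes. Mural cells had 150 CPM in f/f (13 UMIs) and 42.3 in d/d (1 UMI), stromal cells 53.0 and 62.1 (64 and 15 UMIs), myeloid cells 41.9 and 132 (5 and 6 UMIs), epithelial cells 40.3 and 79.6 (97 and 65 UMIs) and mesothelial cells 33.8 and 24.4 (7 and 2 UMIs). Endothelial over epithelial was 5.72-fold in f/f and 4.25-fold in d/d. Stromal Jag1 was 23.0% and 18.4% of the endothelial level, where the summed endothelial markers were at 2.80% and 2.03% and the highest single marker at 33.9% and 11.9%.

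Within the endothelium, cells with at least 1 UMI of an arterial marker (Gja5, Gja4, Bmx or Sema3g) were set beside those without, over both libraries together because there were 29 such cells (24 f/f and 5 d/d) against 251. Efnb2 was dropped from the arterial markers after it had been seen in the epithelium, so this is a description. Jag1 was at 591 CPM (20 UMIs, interval 361 to 912) in cells with an arterial marker and 216 (63 UMIs, 166 to 276) in those without. Jag2 was at 591 and 250 CPM (20 and 73 UMIs) and Dll4 at 443 and 144 CPM (15 and 42 UMIs). For these 3 ligands the intervals of the cells with and without an arterial marker did not overlap, whereas Notch1, at 354 and 305 CPM, was near the same level in both. By library, the f/f cells gave 542 and 192 CPM for Jag1, 686 and 250 for Jag2 and 433 and 134 for Dll4. The 5 d/d cells with an arterial marker had 5, 1 and 3 UMIs of these ligands, and Jag2 was there lower with the marker than without, at 162 and 251 CPM. The 15 cells with a lymphatic marker had 387 CPM of Dll4 (6 UMIs, interval 142 to 843), against 164 in those without (51 UMIs, 122 to 216), with overlapping intervals, and 387 and 281 CPM of Jag2 and 323 and 252 of Jag1.

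The target Hes1 (ENSMUSG00000022528, chr16:30064384-30067796) had another distribution from the ligands, with its highest level in epithelial cells: 143 CPM in f/f (345 UMIs, interval 129 to 159) and 197 in d/d (161 UMIs, 168 to 230). Myeloid cells followed with 75.4 and 87.8 CPM (9 and 4 UMIs), then in f/f endothelial (67.5, 17 UMIs), mural (57.6, 5 UMIs), stromal (34.8, 42 UMIs) and mesothelial cells (29.0, 6 UMIs). In d/d, mesothelial cells had 85.5 CPM (7 UMIs), mural 84.5 (2 UMIs), endothelial 67.7 (5 UMIs) and stromal 62.1 (15 UMIs). The endothelial level was 0.47-fold the epithelial level in f/f and 0.34-fold in d/d, where both intervals lie below equality. With classes from clusters both intervals included equality, at log2 ratios of -0.61 and -1.13, and in d/d so did those after thinning to 500 UMIs and in non-cycling cells. Stromal Hes1 was 24.3% and 31.5% of the epithelial level, while the 15 epithelial markers reached 10.2% and 14.8% of their own level in stromal cells when summed and at most 22.1% and 29.6% singly. The counting intervals of the stromal Hes1 values include these highest single values in both libraries. The part of RNA from other cells in stromal Hes1 was not tested.

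Hey1 (ENSMUSG00000040289, chr3:8663359-8667256), a target known from endothelium, was close to the limit of detection. Its endothelial UMIs numbered 3 in the f/f and 6 in the d/d library (11.9 and 81.2 CPM), the epithelial ones 21 and 12 (8.72 and 14.7 CPM) and the stromal ones 9 and 3 (7.45 and 12.4 CPM). The endothelial UMIs are fewer than the 20 needed here for a ratio between the libraries.

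**Figure D1:**
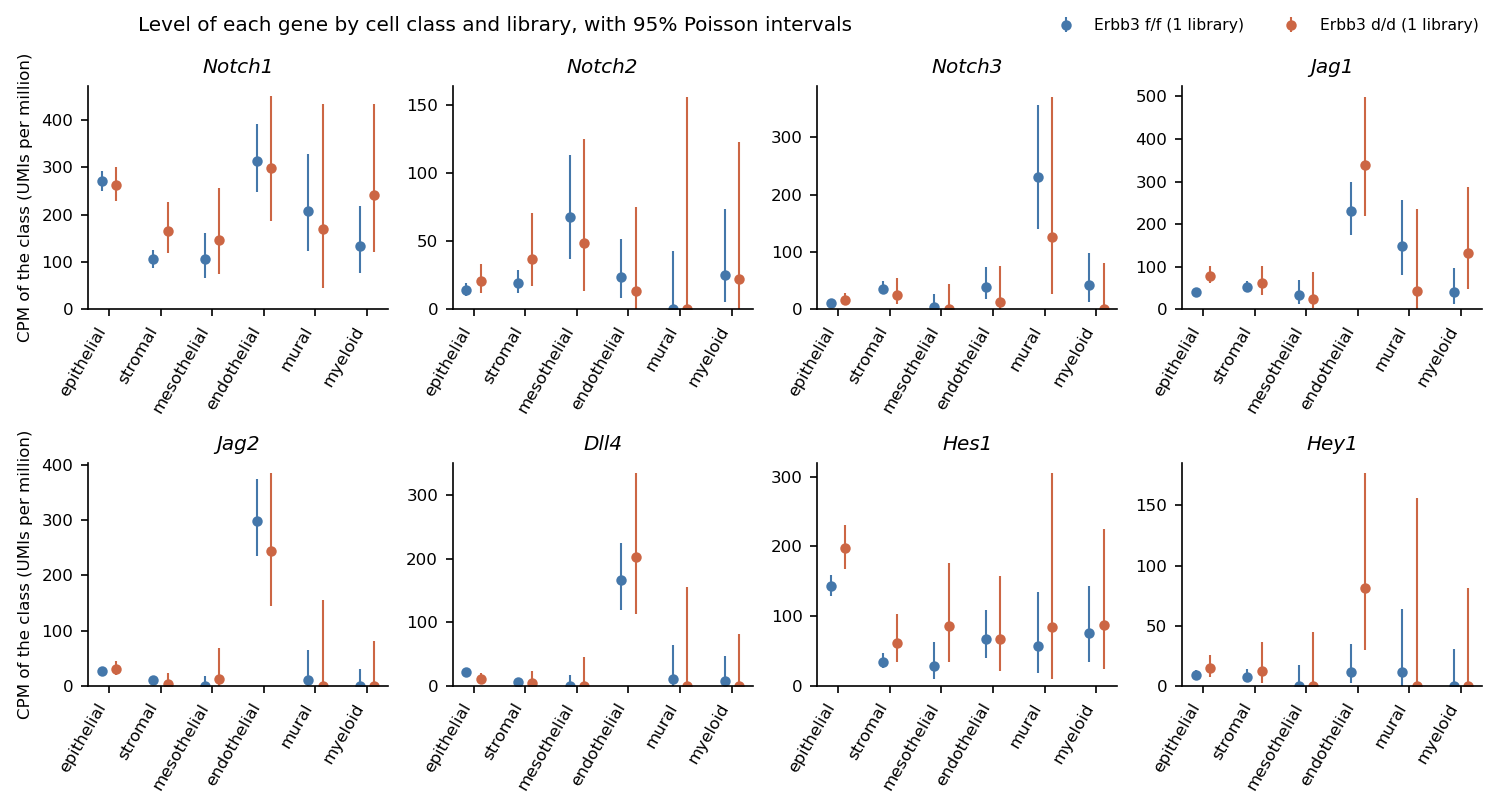
CPM of each gene (y axis, a separate scale per gene) in 6 cell classes (x axis), with points for the f/f and d/d libraries and bars for 95% Poisson intervals. Jag2 and Dll4 are highest in endothelial cells, at 298 and 167 CPM in f/f, Notch3 is highest in mural cells at 231 CPM in f/f, and Hes1 is highest in epithelial cells at 143 and 197 CPM.

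Across the genotypes, no gene with enough UMIs to be counted differed by 2-fold or more in epithelial, stromal or endothelial cells as classed here. A ratio needed at least 20 UMIs of the gene in the class, both libraries added, and a ratio of more than 2 in either direction was called. In epithelial cells 0 of 8 genes were called, where 14.3% of all 10444 genes counted were, in stromal cells 0 of 5, where 13.3% of 9539 were, and in endothelial cells 0 of 5, where 15.1% of 4934 were. The median log2 ratio of the counted genes, d/d over f/f, was 0.48 in epithelial, 0.65 in stromal and 0.00 in endothelial cells, beside -0.01, -0.07 and -0.07 for all genes counted in these classes. These genes were not drawn at random, and the medians describe them alone. Under at least 1 of the other settings tried, 6 of the ratios passed 2-fold: epithelial Jag1 (up to 1.64 on the log2 scale), Hey1 (up to 1.47), Notch3 (up to 1.12) and Dll4 (down to -1.30), and stromal Notch2 (up to 1.41) and Hes1 (up to 1.03).

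Among the ligands in epithelial cells, Jag1 had the highest ratio. Its level was 40.3 CPM in f/f and 79.6 in d/d, a log2 ratio of 0.98 (interval 0.51 to 1.45), which lies just under the 2-fold limit. The share of epithelial cells with a Jag1 UMI was 3.59% (f/f) and 6.44% (d/d). Epithelial Dll4 lay on the other side, at 21.2 and 11.0 CPM and -0.94 on the log2 scale (-2.15 to 0.09), and Jag2, at 27.4 and 30.6 CPM, did not differ beyond counting error (0.16, interval from -0.57).

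Of the targets, Hes1 was higher in d/d by 0.46 on the log2 scale (0.18 to 0.73) over all epithelial cells. A UMI was found in 12.8% (f/f) and 15.6% (d/d) of them. The interval included 0 within cycling cells (0.30, -0.09 to 0.70) and within non-cycling cells (0.44, -0.10 to 0.95), 2 groups whose shares differed between the libraries. Epithelial Hey1 had a log2 ratio of 0.75 with an interval that includes 0. Of the receptors in epithelial cells, Notch1 had a log2 ratio of -0.04 (-0.27 to 0.19), and Notch2 and Notch3 had 0.56 and 0.51 with intervals that include 0. The receptor most often counted in the epithelium was thus at a like level in both libraries, while over all epithelial cells the intervals of Jag1 and Hes1 lay above 0.

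In stromal cells, the class in which the labels place the deletion, Notch1 was at 106 CPM in f/f and 166 in d/d, a log2 ratio of 0.65 (0.09 to 1.17). The interval included 0 with all deposited barcodes (0.46, from -0.06) and after thinning (0.42, from -0.30). Epithelial markers, whose cells hold more Notch1, also made up more of the d/d stromal cells, 14.8% of their epithelial level against 10.2% in f/f. The part of this in the Notch1 ratio was not tested. Stromal Notch2 had a log2 ratio of 0.97 on 23 and 9 UMIs and Hes1 one of 0.84 (-0.12 to 1.72) on 42 and 15 UMIs. When each cell was thinned to 500 UMIs the Hes1 ratio turned to -0.27, with an interval that includes 0, so no direction can be given for stromal Hes1. Stromal Jag1 (0.23) and Notch3 (-0.55, on 44 and 6 UMIs) had intervals that include 0.

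Endothelial ratios on at least 20 UMIs all had intervals that include 0: 0.55 for Jag1 (-0.18 to 1.25), 0.28 for Dll4, 0.00 for Hes1, -0.08 for Notch1 and -0.29 for Jag2. Hey1, on 3 and 6 UMIs, was not counted. With 67 endothelial cells in the d/d library, the interval of Hes1 held a 2-fold difference in either direction. In mural cells Notch1 and Notch3 reached 20 UMIs, with log2 ratios of -0.30 on 18 and 4 UMIs and -0.86 on 20 and 3 UMIs, again with intervals that include 0.

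**Figure D2:**
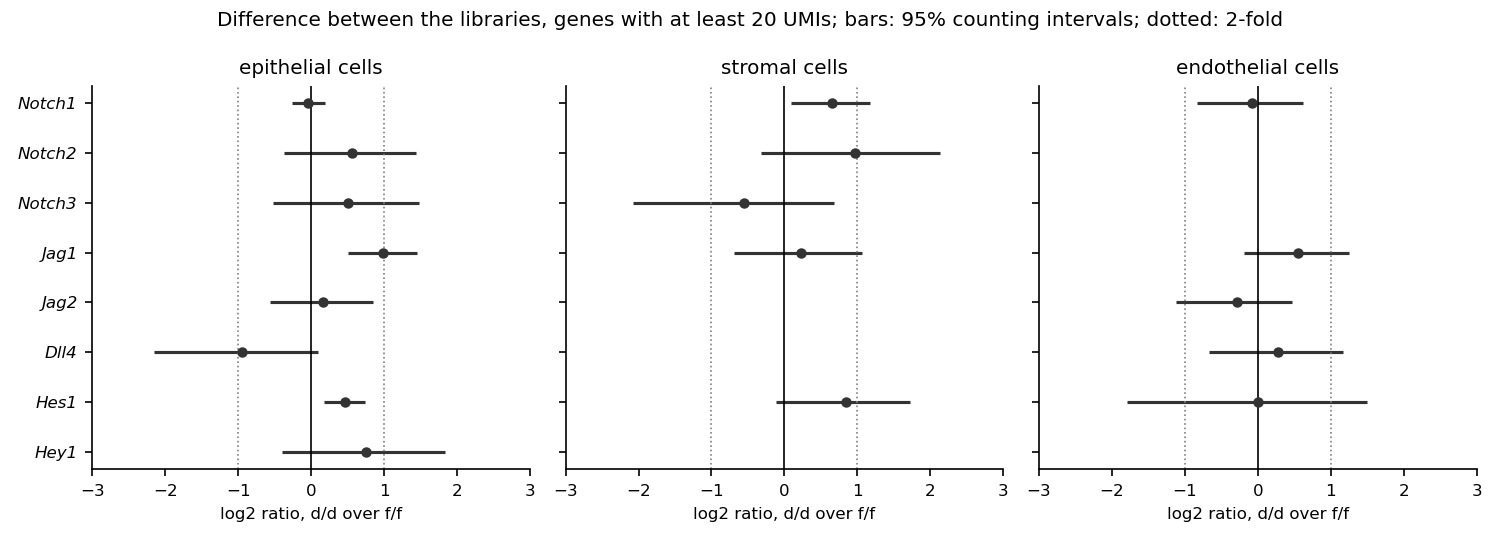
Log2 ratio, d/d over f/f (x axis), for the genes that reached 20 UMIs in epithelial, stromal and endothelial cells, with bars for 95% counting intervals and dotted lines at 2-fold. All points lie within the dotted lines, and the bars of epithelial Jag1 (0.98), epithelial Hes1 (0.46) and stromal Notch1 (0.65) do not cross 0, although those of Hes1 and Notch1 did under some other settings.

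**Figure D3:**
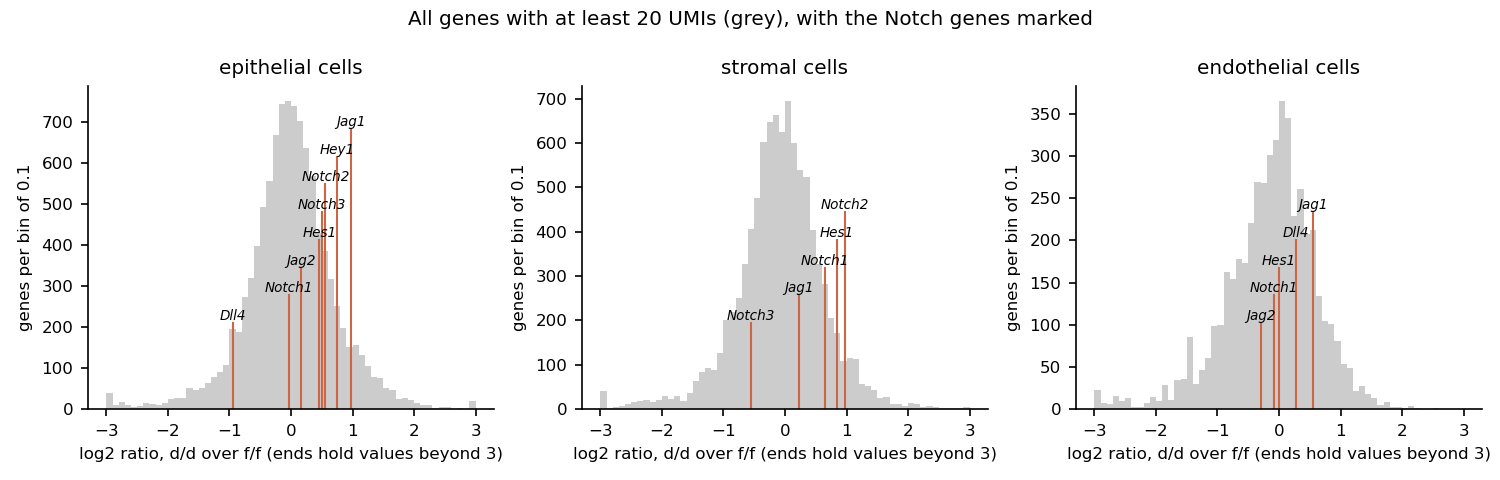
Number of genes (y axis) per bin of log2 ratio, d/d over f/f (x axis), for all genes that reached 20 UMIs in 3 cell classes, in grey, with the Notch genes as vertical lines whose heights carry no value. Epithelial Jag1 at 0.98 lies toward the upper side of the 10444 genes counted, and Notch1 at -0.04 lies at the middle.

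The epithelium held different cells in the 2 libraries, so the ratios were also taken within subsets. By subset markers, 1280 f/f and 58 d/d cells were of the Lrp2 type, 89 and 210 of the Muc4 type, 158 and 145 of the Ltf type, 288 and 42 had glandular markers such as Foxa2, the transcription factor of uterine glands, 334 and 359 had no subset marker, and 249 and 87 tied between sets and were left out. Cells with at least 2 UMIs of 20 cell-cycle genes, called cycling, numbered 491 (f/f) and 515 (d/d), and cells with none, called non-cycling, numbered 1585 and 304. These groups differed in depth, with a median of 1200 and 922 UMIs in cycling and 806 and 673 in non-cycling cells. Non-cycling here thus means that no cell-cycle UMI was captured, which is also more frequent at low depth. The part of depth in the values of these groups was not tested.

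Notch1 was between 245 and 322 CPM in the f/f subsets and between 232 and 395 CPM in the d/d subsets. It did not follow 1 order: in f/f it was lowest in Lrp2 cells (245 CPM, 333 UMIs) and highest in glandular cells (322 CPM, 91 UMIs), while in d/d it was highest in Ltf cells (395 CPM, 51 UMIs). Cycling and non-cycling cells were alike in it, at 261 and 275 CPM in f/f and 248 and 295 in d/d. Hes1 was highest in Ltf cells of both libraries, at 192 CPM in f/f (31 UMIs, interval 131 to 273) and 248 in d/d (32 UMIs, 169 to 350), with intervals that overlap those of the other subsets. Glandular cells had 152 and 150 CPM of Hes1, on 43 and 6 UMIs. In cycling and non-cycling cells Hes1 was at 166 and 128 CPM in f/f and at 205 and 174 in d/d. Its d/d over f/f log2 ratio was 0.24 in Lrp2, 0.91 in Muc4, 0.36 in Ltf and -0.02 in glandular cells, with intervals that include 0. In cells with no subset marker it was 0.69 (0.05 to 1.35).

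Jag1 was higher in the d/d library in each of these subsets, on few UMIs: 33.9 and 37.6 CPM in Lrp2 cells (46 and 2 UMIs), 34.9 and 67.7 in Muc4 cells (3 and 14), 55.9 and 92.9 in Ltf cells (9 and 12), 42.4 and 75.1 in glandular cells (12 and 3) and 56.6 and 90.0 in cells with no subset marker (15 and 26). Each of these 5 ratios has an interval that includes 0. The difference was larger in cells without cell-cycle UMIs, where Jag1 was at 41.6 CPM in f/f (59 UMIs) and 130 in d/d (29 UMIs), a log2 ratio of 1.64 (0.95 to 2.30) that is past 2-fold. In these non-cycling cells 2 of 7 counted genes were past 2-fold higher, Jag1 and, on 16 and 7 UMIs, Hey1 (1.47, with an interval that includes 0), beside 6.39% of all 9083 genes counted (15.2% in either direction). In cycling cells Jag1 was at 34.1 and 60.6 CPM (23 and 32 UMIs), a log2 ratio of 0.83 (0.01 to 1.67). Cells with 1 cell-cycle UMI (322 f/f and 82 d/d) had 47.8 and 61.1 CPM, on 15 and 4 UMIs. Their log2 ratio of 0.35 had an interval that includes 0 and rested on fewer than 20 UMIs. No order over these groups can therefore be given. The intervals of the cycling and non-cycling ratios overlap. The subset mix also differed: 868 of 1585 non-cycling f/f cells and 33 of 304 d/d cells were of the Lrp2 type. Within non-cycling cells Jag1 was higher in d/d in each of the 5 subsets, on few UMIs. It was at 35.6 and 72.7 CPM in Lrp2 (29 and 2 UMIs) and 92.7 and 155 in Ltf cells (8 and 6). In cycling Lrp2 cells it was lower in d/d, at 33.7 and 0 CPM (13 and 0 UMIs). The part of the subset mix in the Jag1 ratio was not tested.

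Markers of several other cell types also differed between the libraries in the non-cycling cells. From f/f to d/d the summed level of the 10 mesothelial markers there went from 57.1 to 179 CPM, that of the mural markers from 31.7 to 84.9, of the myeloid markers from 57.8 to 89.3, of the endothelial markers from 88.0 to 116 and of the stromal markers from 392 to 469. Lymphoid markers lay the other way, from 104 to 35.7 CPM, as did mast cell markers, from 20.4 to 13.4. Their part in the Jag1 ratio was not tested. For comparison, Jag1 itself was at 33.8 and 24.4 CPM in mesothelial, 150 and 42.3 in mural and 41.9 and 132 in myeloid cells. It was at 230 and 338 CPM in endothelial and 53.0 and 62.1 in stromal cells.

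**Figure D4:**
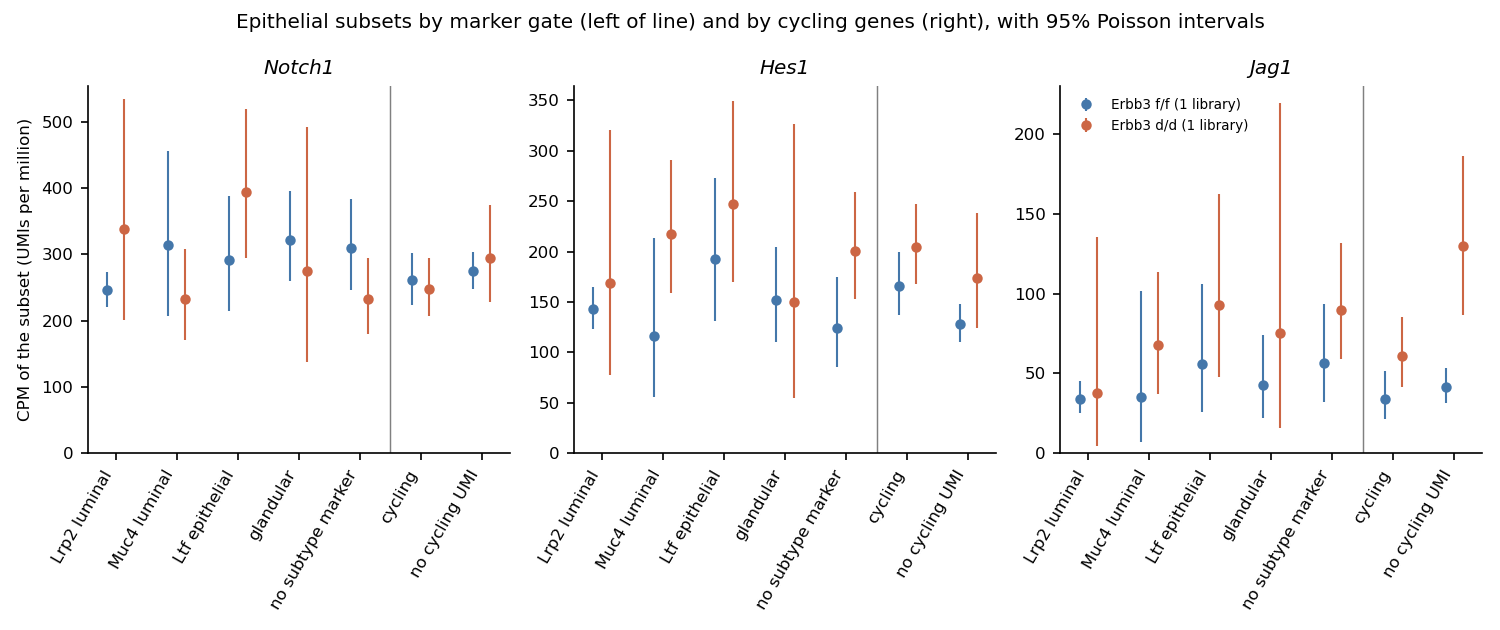
CPM (y axis) of Notch1, Hes1 and Jag1 in 5 epithelial subsets by markers, left of the line, and in cycling and non-cycling epithelial cells, right of it, with points for the f/f and d/d libraries and bars for 95% Poisson intervals. Jag1 in non-cycling cells, at 41.6 CPM in f/f and 130 in d/d, has bars that do not overlap.

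The other genes of the pathway were taken as 7 lists of 45 genes in all, of which 44 had values. In epithelial cells 31 could be counted, and 0 were past 2-fold higher in d/d (7.52% of all genes were) and 2 were past 2-fold lower (6.79% of all genes). Of 30 in stromal cells 1 was higher (5.43% of all genes) and 1 was lower (7.85%). In endothelial cells 1 of 17 was higher (4.18%) and 2 were lower (11%). The median log2 ratio of the counted genes was -0.03, -0.20 and 0.05 in these classes.

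Among the glycosyltransferases, which add sugars to the receptors and alter which ligands they answer, Rfng was lower in d/d epithelial cells, at 177 CPM in f/f (426 UMIs) and 63.6 in d/d (52 UMIs), a log2 ratio of -1.48 (-1.92 to -1.06). In stromal cells Rfng was at 119 and 62.1 CPM (144 and 15 UMIs), a log2 ratio of -0.94 (-1.81 to -0.17), and in endothelial cells it had 14 UMIs and 1 UMI. Its relative Mfng was at 159 and 40.6 CPM in endothelial cells (40 and 3 UMIs), a log2 ratio of -1.97, whereas Lfng was at 46.9 and 40.4 CPM in epithelial cells (113 and 33 UMIs) and not past 2-fold in any of the 3 classes. Of the 4 glycosyltransferases that could be counted in each class, 1 was past 2-fold in epithelial, 0 in stromal and 1 in endothelial cells.

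Of the gamma-secretase and sheddase genes, which cleave the receptor, Psen2 was past 2-fold in stromal cells, at 46.3 and 108 CPM (56 and 26 UMIs, log2 ratio 1.22, from 0.49 to 1.91), and in epithelial cells 0 of 7 were. The nuclear complex had 0 genes past 2-fold in the 3 classes. Its core, Rbpj, was at 17.4 and 17.1 CPM in epithelial cells (42 and 14 UMIs). Among the ubiquitin ligases that act on ligands, Neurl1b had a log2 ratio of -1.40 in endothelial cells on 18 and 2 UMIs (-4.55 to 0.66). Among the negative regulators, Dtx1 had one of -1.48 in stromal cells (42 and 3 UMIs, interval -3.82 to 0.16). Numbl had one of 1.18 in endothelial cells (12 and 8 UMIs, interval from -0.31). The intervals of Neurl1b, Dtx1 and Numbl all include 0.

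Of the 6 genes listed as other targets, 2 could be counted in epithelial cells. Hey2 had 22 and 2 UMIs there, a log2 ratio of -1.90 with an interval that includes 0 (-5.03 to 0.12). Hes6, not past 2-fold, was at 114 and 188 CPM there (275 and 154 UMIs), a log2 ratio of 0.72 (0.43 to 1.01). Its ratio in stromal cells was 0.74. Whether Notch signalling switches on Hes6 in these cells was not tested. The other ligands Dll1 and Dll3 had at most 3 UMIs per library in epithelial or stromal cells and were not counted.

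Likeness of pattern was measured as Pearson's r of log2(CPM + 10) over 10 profiles with at least 50 cells, which were epithelial, stromal, mesothelial and endothelial cells of both libraries and mural and myeloid cells of the f/f library, among 9740 genes with at least 100 UMIs. The profiles share libraries, depth and carried-over RNA, so r is a description. Dll4 was most like Nherf2 (0.96), Elk3 (0.95) and Jag2 (0.94). Jag2 was most like Pkn3 (0.95), Icam2 (0.95), which encodes an endothelial adhesion molecule, and Fam110d (0.95), and Jag1 most like Cdk17 (0.96), Ppp1r16b (0.95) and Ecscr (0.94). Notch1 was most like Dennd3 (0.96), Itga6 (0.95), the integrin subunit of basement membrane contact, and Ccn2 (0.94). Notch2 was most like Zc2hc1c (0.96), Tmem134 (0.91) and Stxbp3 (0.91), Notch3 most like Inpp4b (0.93), Smoc1 (0.92) and E2f4 (0.92), and Hes1 most like Dip2b (0.95), Tmie (0.95) and Ncapg (0.95). Between the genes described here, r was 0.88 for Jag1 with Dll4 and 0.81 for Jag1 with Jag2, while Hes1 had 0.00 with Jag1 and 0.13 with Dll4.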

How the data were processed

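Fixed endometrial cells were measured with the Chromium Flex probe assay. The deposited values were raw UMI counts per gene and barcode, as Cell Ranger 9.0.0 left them, per the file headers. The submitters' processing notes name mm10 and GRCm39 without their roles, and gene coordinates here come from GENCODE M21 on GRCm38. Barcodes with at least 200 genes and at most 10% mitochondrial UMIs were kept. Scrublet (scanpy 1.11.5) called 1 f/f and 5 d/d barcodes as doublets, too few for a working call, and these were removed.

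Each cell was first tested for the less frequent classes, which needed at least 2 UMIs from at least 2 markers and a Poisson tail under 0.01 at the library's mean share of those markers. The remaining cells were epithelial or stromal where one marker sum held at least 2 UMIs and at least 2 times the other. This scoring was set after marker levels, and the Notch genes' values under earlier gates, had been seen. Epithelial subsets follow the marker set with the most UMIs. Ratios of CPM carry exact conditional binomial intervals, sums exact Poisson intervals and shares exact Clopper-Pearson intervals, computed in scipy 1.17.1 and checked on simulated data. The members and lists were chosen with earlier results of these data known. The 9 members are always named, other pathway genes where past 2-fold, and for each member with at least 100 UMIs the 3 most alike genes. Lfng, Rbpj, Hes6, Dll1, Dll3 and the other values of Rfng were chosen after their values were seen. Alternatives covered classes from Leiden clusters (leidenalg 0.10.2), a stricter gate, TMM scaling, cell filters, thinning to 500 UMIs and non-cycling cells.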

Additional observations from a re-analysis of the deposited data

How the results depend on the processing

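Over 8 alternatives, 31 ratios of the Notch genes gave 222 values, of which 215 stayed within the counting interval of the value reported and 7 did not. With classes from clusters the endothelial over epithelial log2 ratio became 3.08 (f/f) and 2.94 (d/d) for Jag1 and 2.84 for Notch3 in f/f, and the same ratio for Dll4 in f/f was 3.67 after thinning to 500 UMIs. In cells without cell-cycle UMIs the d/d over f/f log2 ratio in the epithelium was 1.64 for Jag1 and 0.86 for Jag2, and thinning turned stromal Hes1 to -0.27; the cause was not tested. Epithelial Jag1 stayed between 0.68 and 1.64 and epithelial Hes1 between 0.25 and 0.56 over all alternatives run, while stromal Notch1 stayed between 0.42 and 0.80. The interval of Jag1 lay above 0 in each of them, that of Hes1 included 0 in non-cycling cells (-0.10 to 0.95) and that of Notch1 included 0 with all deposited barcodes (from -0.06) and after thinning (from -0.30). For Hes1, the interval of endothelial over epithelial included 0 with classes from clusters in both libraries, and in d/d after thinning and in non-cycling cells. Some d/d over f/f intervals that included 0 left it elsewhere. With classes from clusters, epithelial Dll4 lay below 0 (-2.68 to -0.17) and endothelial Jag1 above 0 (0.03 to 1.37). Stromal Hes1 lay above 0 with at least 500 genes (from 0.02) and with the 5% highest doublet scores removed (from 0.003). Directions turned under some setting for Dll4 (-0.15 to 0.53), Jag2 (-0.47 to 0.13), Notch1 (-0.22 to 0.21) and Hes1 (-0.17 to 0.22) in endothelial cells, Jag2 (-0.30 to 0.86) and Notch1 (-0.20 to 0.10) in epithelial cells and Jag1 (-0.04 to 0.32) and Notch3 (-0.99 to 0.07) in stromal cells. The counts of pathway genes past 2-fold were unstable. The endothelial count of 3 was 1 with classes from clusters, all deposited barcodes, at least 500 genes, thinning or non-cycling cells, 0 for genes with at least 100 UMIs and 6 at a fold of 1.5. The epithelial count of 2 was 4 with a gate of 3 marker UMIs, 1 for genes with at least 100 UMIs and 9 at a fold of 1.5. The stromal count of 2 was 5 with classes from clusters or non-cycling cells, 6 with all deposited barcodes or the 5% highest doublet scores removed, 4 with at least 500 genes, 7 after thinning, 0 for genes with at least 100 UMIs and 10 at a fold of 1.5. Classes from clusters leave out a cluster led by Clca3b and Ltf (188 f/f and 271 d/d cells) and another led by Aox3 and Igha (299 and 123 cells), which both stayed unnamed. These unnamed clusters held 454 of the cells gated as epithelial and 120 of those gated as stromal. TMM scaling shifted all ratios of a class by at most 0.05 on the log2 scale. For 13 combinations of ratio and alternative there were too few UMIs for a value. No paired analysis was possible because each group has 1 library. Few UMIs limit Hey1 and Notch2, and 73 and 20 cells limit the mural class.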
